A study of Mus musculus with 18 samples.

Results

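Dorsal root ganglia (DRG) of wild-type mice from 2 colonies were compared with each other, with no knockout (KO) mouse in the comparison. The members were chosen by sample title: 3 arrays of littermates from the Nav1.8 KO line and 3 arrays of littermates from the Nav1.9 KO line, which are 6 of the 18 arrays. The study hybridised DRG RNA, taken along the whole spine, to Affymetrix mouse genome arrays for 3 sodium channel KO lines and the littermates of each, with 3 arrays in each of 6 groups. The question asked here is how far the control tissue of one line differs from the control tissue of another before any channel is removed. Both littermate groups have the genotype Wild Type and no treatment is named for either. The Nav1.8 (gene *Scn10a*) and Nav1.9 (*Scn11a*) mutants of these lines are global nulls, whereas Nav1.7 (*Scn9a*) was removed from sensory neurons by Advillin-Cre. The methods give one age range of young adult mice and both sexes for the whole study, and the strain, the sex of the animals in each group and whether an array holds the RNA of 1 animal, are not given in the sources used here. What the p-values capture is thus the scatter among these arrays, which may be technical, and the number of arrays limits the precision.

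A DRG holds the cell bodies of the sensory neurons that carry touch, temperature and pain, wrapped in satellite glia, with Schwann cells along the axons, blood vessels, a connective tissue capsule and resident macrophages. When a peripheral axon is cut or crushed, the neuron switches on a regeneration programme that is led by transcription factors such as *Atf3* and *Jun* and that includes growth-associated proteins and neuropeptides. Handling and killing of an animal can switch on immediate early genes within minutes, and inbred mouse strains differ in the level of many genes. Lists of genes for each of these states were compared between the groups, with all differences given as Nav1.9 littermates minus Nav1.8 littermates on the log2 scale.

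The arrays were first compared as libraries. The median log2 intensity lay between 6.33 and 6.36 on all 18 arrays. Sensory neuron markers averaged 12.15 to 12.16 on the Nav1.8 littermate arrays and 12.09 to 12.13 on the Nav1.9 littermate arrays, and spinal cord markers averaged 5.40 to 5.54 and 5.45 to 5.47. All 6 arrays were low for *Xist*, the RNA of the inactive X chromosome, at 5.24 to 5.65, and high for the Y-linked *Eif2s3y*, at 9.30 to 9.45, so the arrays of both groups were alike in these transcripts, although the Y-linked *Uty* was higher in Nav1.9 littermates by 0.42 (adjusted p = 0.0466). *Xist* was at 11.97 to 12.29 on the 3 Nav1.7 littermate arrays.

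The groups differed in a sign of RNA quality. The array carries control probe sets at the 3' and the 5' end of *Gapdh* and *Actb* transcripts, and the 3' level exceeds the 5' level where RNA is degraded or its copy is incomplete. The *Gapdh* 3' level minus its 5' level was 1.15, 0.897 and 0.578 on Nav1.8 littermate arrays 1 to 3, and 0.0779, 0.0983 and 0.101 on Nav1.9 littermate arrays 1 to 3. For *Actb* the differences were 1.72, 1.55 and 1.25 against 0.791, 0.834 and 0.857. The groups did not overlap in either control, and the mean of both was 0.916 to 1.44 in Nav1.8 and 0.434 to 0.479 in Nav1.9 littermates. It was 0.505 to 0.602 in Nav1.7 littermates, 0.678 to 1.08 in Nav1.8 KO and 0.397 to 0.616 in Nav1.9 KO arrays. Of the 16752 probe sets that were not the brightest of their gene, 49.5% were higher in Nav1.9 littermates, against 39.7% of the brightest ones. The 3' to 5' measure moved with the line in littermates and in KO arrays, and main results below are set beside a model that holds it as a term, or beside the Nav1.7 littermates, whose 3' to 5' difference was near that of the Nav1.9 littermates.

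**Figure D1:**
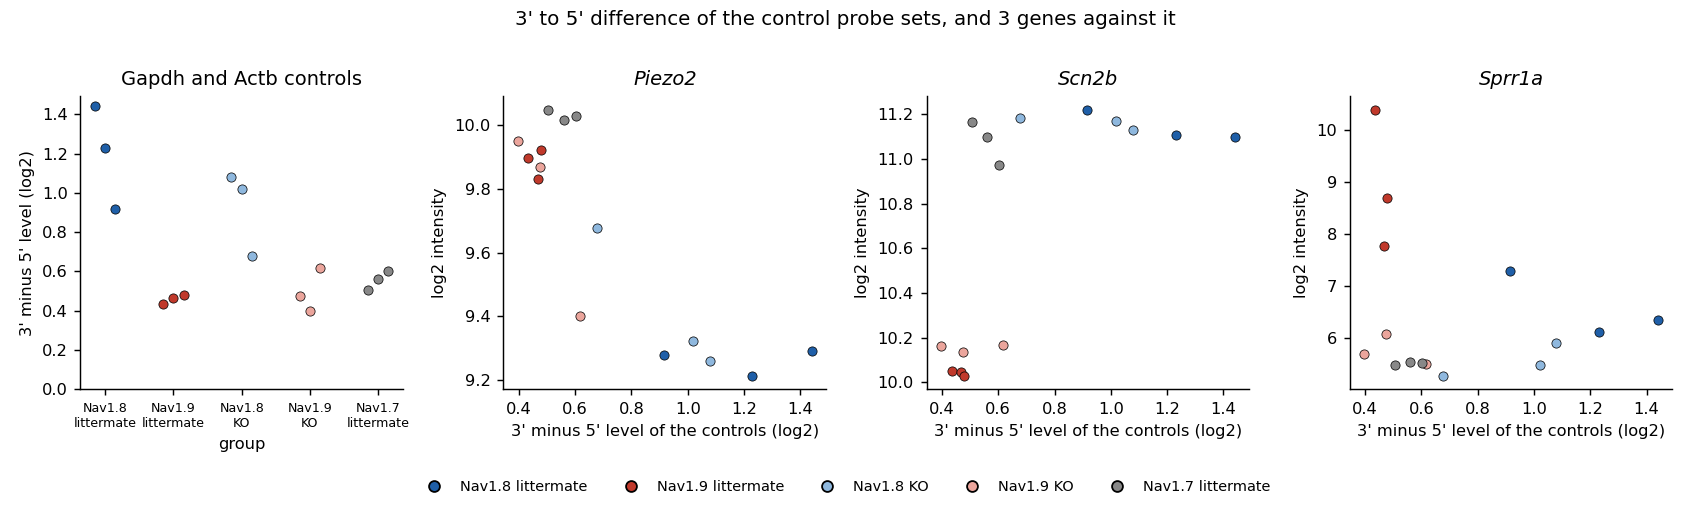
The left panel plots, for each array of 5 groups, the mean of the *Gapdh* and *Actb* control differences (3' level minus 5' level, log2), and the other panels plot the log2 intensity of *Piezo2*, *Scn2b* and *Sprr1a* against it. The Nav1.8 littermates lie at 0.916 to 1.44 and the Nav1.9 littermates at 0.434 to 0.479, *Piezo2* is higher on arrays with a small difference, *Scn2b* is lower in both groups of the Nav1.9 line than in Nav1.7 littermates with a similar difference, and *Sprr1a* is highest in Nav1.9 littermates.

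Of 18193 genes, 1821 differed between the littermate groups at an adjusted p under 0.05 from limma, which is 10% and is what is meant by called here. Of these, 699 were higher in Nav1.9 littermates (3.84%) and 1122 were lower (6.17%). The balance depends on the probe set kept: of those not the brightest of their gene, 1675 past the threshold were higher and 628 lower. Of 2041 other probe sets of the called genes, 66.2% had the same direction, and 335 passed in that direction and 78 in the opposite one. Most differences of the called genes were small, with a median size of 0.27 on the log2 scale (1.21-fold), and 79 called genes differed by more than 1.5-fold. With the cut-offs the study used (unadjusted p under 0.01, fold over 1.5, taken jointly here), 86 genes passed (0.473%), 54 higher and 32 lower. For 5899 genes (32.4%) the 3 arrays of one group did not overlap those of the other. The count of called genes was 483, 557 and 1603 without Nav1.8 littermate replicates 1, 2 and 3, and 589, 1159 and 1139 without Nav1.9 littermate replicates 1, 2 and 3.

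With the 3' to 5' difference as a term in the model of the 9 littermate arrays, 1 gene was called (0.00550%), the unnamed transcript *2610507I01Rik*, and 1142 genes had an unadjusted p under 0.05. With the same term in a model of all 18 arrays, 3 genes were called (0.0165%): *2610507I01Rik*, *Scn2b* and *Mrpl55*. The term nearly coincides with the groups and the standard errors were larger with it (0.370 for *Egr3*, against 0.136 without), so the sizes were compared too. The median difference of the 1122 lower genes went from -0.27 to -0.12 with the term in 18 arrays, and that of the 699 higher genes from 0.29 to 0.17. The median of the 10 largest lower genes went from -1.23 to -1.17, that of the 10 called injury genes from 0.69 to 0.84 and that of the 10 largest higher genes from 1.11 to 0.89. With the term in 9 arrays the medians of the 1122 lower and the 699 higher genes were -0.19 and 0.20. Those of the 10 largest lower, the 10 called injury and the 10 largest higher genes were then -1.24, 0.76 and 0.76. In that fit the differences of *Sprr1a* (2.37 to 0.76), *Fst* (1.05 to 0.46) and *Atf3* (1.10 to 0.75) were smaller. The part of RNA quality in the called genes cannot be told apart from that of the line by these arrays.

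The Nav1.7 littermates were compared as well, although they are of another line and high for *Xist*, which cannot be told apart from RNA quality. For 1223 of the 1821 called genes (67.2%), the mean of the Nav1.7 littermates was nearer to the Nav1.9 than to the Nav1.8 littermates, against 57.8% of all genes. For 1509 of the 1821 (82.9%, against 63% of all genes), Nav1.8 KO replicate 3, which had the smallest 3' to 5' difference of its group, deviated from its other 2 replicates in the direction of the Nav1.9 littermates. Of the 10 called injury genes, 0 had Nav1.7 littermates nearer to Nav1.9, and of the 10 largest lower genes 1 had.

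**Figure D2:**
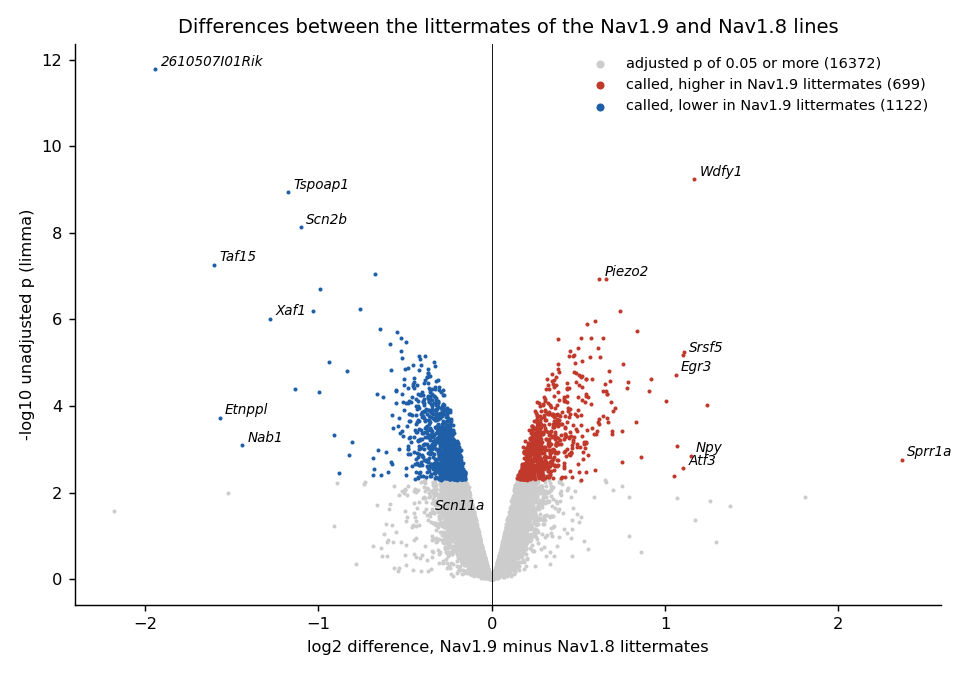
Each point is 1 of 18193 genes, with the log2 difference of Nav1.9 minus Nav1.8 littermates on the horizontal axis and the -log10 of the unadjusted p from limma on the vertical axis. The 699 called genes that were higher and the 1122 that were lower are coloured, and *Sprr1a* stands apart on the right and *2610507I01Rik* at the upper left.

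Genes of the nerve injury and regeneration programme were mostly higher in Nav1.9 littermates. The list was chosen with earlier results of these data known, so its shares are not an independent test. Of 30 measured, 10 rose and 0 fell (33.3% called, against 10% of all genes). An unadjusted p under 0.05 by limma was found for 18 of the 30, against 26.6% of all genes. In 27 the mean was higher in Nav1.9 littermates, against 39.7% of all genes. The median difference of the list was 0.41, against -0.03 over all genes. In 16 of the 30 genes the arrays did not overlap with Nav1.9 littermates higher, against 12.2% of all genes, and in 1 with Nav1.9 littermates lower, against 20.2%.

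*Sprr1a*, a small proline-rich protein that is induced in regrowing axons, was at 6.36, 6.13 and 7.29 on Nav1.8 littermate arrays 1 to 3 and at 10.40, 7.77 and 8.70 on Nav1.9 littermate arrays 1 to 3. The groups did not overlap and replicate 1 of the Nav1.9 littermates was the highest of all. The difference was 2.37 (standard error 0.551, 5.16-fold, adjusted p = 0.0285). *Sprr1a* lay between 5.28 and 6.08 on the 6 KO arrays of both lines and between 5.49 and 5.55 on the Nav1.7 littermate arrays, so the Nav1.8 littermates too were above every one of these 9 arrays.

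*Atf3*, the stress-induced transcription factor used as a marker of injured neurons, was at 8.48, 8.33 and 8.60 in Nav1.8 and at 10.35, 8.97 and 9.41 in Nav1.9 littermates. Again every Nav1.9 array was above every Nav1.8 array, by 1.10 on average (SE 0.276, 2.15-fold, adjusted p = 0.0363). Its level was 7.38 to 8.11 on the KO arrays of both lines and 7.39 to 7.64 in Nav1.7 littermates. *Jun*, the partner of *Atf3* in AP-1 dimers, was at 10.30, 10.22 and 10.18 against 10.53, 10.52 and 10.49. Its groups were tight and separate (difference 0.28, SE 0.0483, 1.21-fold, adjusted p = 0.0113). A dimmer *Jun* probe set went from 8.18, 8.02 and 7.89 to 9.31, 9.05 and 9.22, a larger difference of 1.16 (SE 0.119, adjusted p over all probe sets 0.00104). That probe set was also higher in Nav1.9 KO (8.46 to 8.75) than in Nav1.8 KO (7.87 to 8.03), which the brighter one was not.

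The secreted factors of the list moved in the same direction. *Npy*, a neuropeptide that is nearly absent from intact sensory neurons and appears after axotomy, was at 6.30, 6.03 and 6.31 against 8.08, 6.84 and 7.16 (difference 1.15, SE 0.258, 2.22-fold, adjusted p = 0.0251). *Bdnf*, a neurotrophin released by nociceptors, was at 9.83, 9.72 and 9.58 against 10.45, 10.10 and 10.66 (difference 0.69, SE 0.130, adjusted p = 0.0143). *Fst*, the activin-binding protein follistatin, was at 6.55, 6.35 and 6.87 against 6.98 to 8.29 (difference 1.05, SE 0.281, adjusted p = 0.045). In none of these did the groups overlap at the brightest probe set. A dimmer *Bdnf* probe set differed by 0.18 (adjusted p over all probe sets 0.505 by limma), and its groups overlapped. *Bdnf* was not called without Nav1.9 littermate replicate 1 (difference 0.57 to 0.85 over all arrays left out in turn), and *Fst* was called only without Nav1.9 littermate replicate 2 (0.73 to 1.39).

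The other called members act inside the cell. *Socs3*, a feedback inhibitor of JAK-STAT signalling, was at 7.62, 7.43 and 7.36 against 8.34, 8.09 and 8.03 (difference 0.69, SE 0.0909, 1.61-fold, adjusted p = 0.00568). *Gap43*, a growth cone protein, rose by 0.29 (adjusted p = 0.0204), the stress gene *Gadd45a* by 0.53 (adjusted p = 0.023) and *Stmn4*, a microtubule-destabilising stathmin, by 0.54 (adjusted p = 0.0406). For 4 of the 10 called genes the 3 Nav1.9 littermate arrays were above all 15 other arrays, and Nav1.9 littermate replicate 1 was the highest of its group in 9 of 10. These 10 genes had been picked for a higher level in Nav1.9 littermates, and the shares over all genes were not counted.

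Of the 20 members that did not pass, some had separate groups and others overlapped. *Crh*, corticotropin-releasing hormone, was at 4.23, 3.88 and 5.01 against 7.78, 4.89 and 5.87 (adjusted p = 0.0847), with Nav1.9 littermate replicate 2 below Nav1.8 littermate replicate 3. *Gpr151*, an orphan receptor, was at 5.59, 5.86 and 6.02 against 7.93, 6.30 and 6.45 (adjusted p = 0.0871), without overlap. *Sox11*, a transcription factor of axon growth, was at 8.21, 8.03 and 8.19 against 9.53, 8.51 and 8.65 (adjusted p = 0.0603). In all 3 replicate 1 of the Nav1.9 littermates was highest. The galanin gene *Gal* was at 10.82, 10.80 and 10.74 against 11.42, 10.50 and 10.75 (adjusted p = 0.78) and overlapped. The choice of these 4 genes followed from their values.

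The call depended on single arrays. Without Nav1.8 littermate replicate 1 or 2, 3 injury genes were called, without Nav1.8 littermate replicate 3 there were 6, and without Nav1.9 littermate replicates 1, 2 and 3 there were 7, 14 and 8. *Socs3* and *Jun* were called in each of these. *Sprr1a* differed by 1.65 without Nav1.9 littermate replicate 1 and by up to 2.96, and lost its call without Nav1.8 littermate replicate 1 or 2 or Nav1.9 littermate replicate 3. *Atf3* lost its call without any 1 of the Nav1.8 littermate arrays or Nav1.9 littermate replicate 3 (difference 0.72 to 1.41), and *Npy* without Nav1.8 littermate replicate 1 or 2 (0.79 to 1.41). With the 3' to 5' difference as a term, 0 of 30 were called by limma, in 9 arrays (5 at an unadjusted p under 0.05) or in 18 (8 at an unadjusted p under 0.05), and the median difference of the list was 0.33 and 0.45. The Nav1.7 littermates, with a 3' to 5' difference close to that of the Nav1.9 littermates, were nearer to Nav1.8 than to Nav1.9 littermates in all 30 genes. Of all genes, 57.8% had Nav1.7 littermates nearer to Nav1.9. The Nav1.7 littermates are of another line and high for *Xist*, so RNA quality, line and *Xist* class cannot be told apart here.

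**Figure D3:**
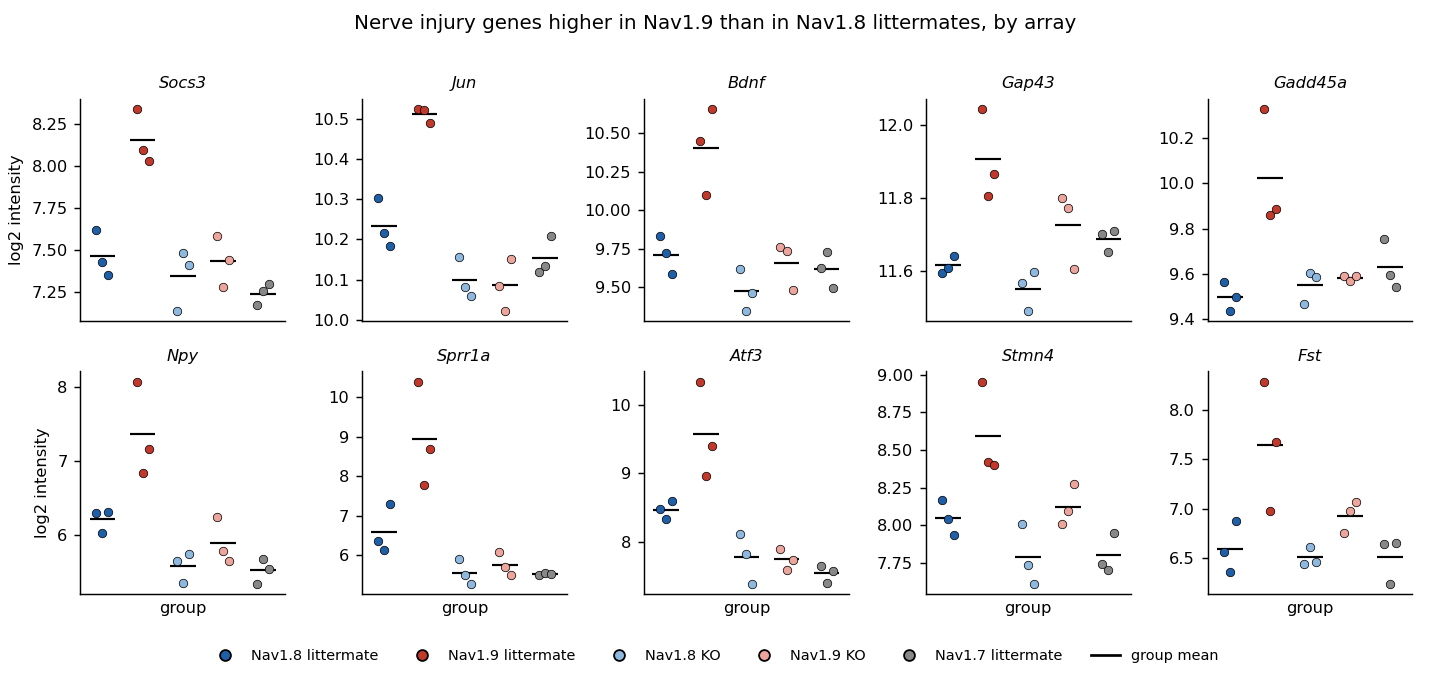
Each panel plots the log2 intensity of 1 of the 10 called injury genes on the 3 arrays of 5 groups, with bars at the group means. The Nav1.9 littermates are above the Nav1.8 littermates in every panel.

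The regions before the starts of 2 of these genes are printed because AP-1, the family of *Jun* and *Atf3*, and STAT factors, which *Socs3* restrains, bind short palindromes that can be read in them. They are the 250 bases before the RefSeq start, 5' to 3' on the gene's strand, build GRCm38.p6, for *Sprr1a* at chr3:92485882-92486131 (minus strand) and for *Socs3* at chr11:117969367-117969616 (minus strand), with matches to TGANTCA (AP-1) and TTCNNNGAA (STAT) in capitals. Both motifs read the same on both strands and do not overlap each other here.
Sprr1a: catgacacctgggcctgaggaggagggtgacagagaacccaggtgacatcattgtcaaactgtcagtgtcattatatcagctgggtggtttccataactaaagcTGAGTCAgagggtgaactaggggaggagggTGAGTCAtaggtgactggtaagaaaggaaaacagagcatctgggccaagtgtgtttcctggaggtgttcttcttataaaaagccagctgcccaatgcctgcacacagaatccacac
Socs3: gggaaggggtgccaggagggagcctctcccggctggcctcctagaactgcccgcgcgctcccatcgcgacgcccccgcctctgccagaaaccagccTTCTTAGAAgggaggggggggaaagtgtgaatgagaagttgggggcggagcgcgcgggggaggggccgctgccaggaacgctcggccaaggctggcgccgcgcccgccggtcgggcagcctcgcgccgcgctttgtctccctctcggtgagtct
*Sprr1a* holds 2 matches to TGANTCA, which begin at positions -146 and -116 from the start, and *Socs3* holds 1 match to TTCNNNGAA, which begins at position -154. Of 32851 promoters of this length, 6.75% hold TGANTCA and 7.02% hold TTCNNNGAA. Promoters were found for 7 of the 10 called injury genes, 13 in all, because *Bdnf* has several starts, and 2 of the 13 hold each motif. The matches are letters in a window and not measured binding.

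Genes that fall after axotomy gave no call. Of 9 measured, 0 passed in either direction, and 3 had an unadjusted p under 0.05 by limma, against 26.6% of all genes. In 8 the mean was higher in Nav1.9 littermates, against 39.7% of all genes, and the median difference was 0.07. *Trpv1*, the heat and capsaicin channel of nociceptors, was at 11.53, 11.51 and 11.43 against 11.57, 11.54 and 11.56, and *P2rx3*, the ATP receptor of nociceptors, was at 11.78, 11.73 and 11.80 against 11.84, 11.89 and 11.86. *Oprm1*, the mu opioid receptor, was at 5.91, 5.76 and 5.92 against 6.18, 5.89 and 6.20 (adjusted p = 0.126).

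Immediate early genes moved differently from the injury genes. Of 22 measured, 1 rose (*Egr3*) and 6 fell (*Egr2*, *Klf2*, *Zfp36*, *Ccn1*, *Nr4a2* and *Nr4a1*), 31.8% against 10% of all genes, with a median difference of -0.11. *Egr3*, a zinc finger transcription factor, was at 7.77, 7.74 and 7.84 against 9.10, 8.97 and 8.47 (difference 1.06, SE 0.136, 2.09-fold, adjusted p = 0.00544). The groups did not overlap, and *Egr3* lay between 7.45 and 8.23 on the KO arrays of both lines. A dimmer *Egr3* probe set did not follow (difference -0.08).

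*Egr2*, which drives myelination in Schwann cells and also responds to activity, went the other way, from 9.24, 9.03 and 9.04 to 8.34, 8.67 and 8.41 (difference -0.63, SE 0.0927, adjusted p = 0.00717). It was lower in Nav1.9 KO than in Nav1.8 KO as well, by 1.18. *Klf2*, a factor of endothelium and quiescence, was at 8.20, 8.09 and 8.08 against 7.51, 7.71 and 7.17 (difference -0.66, adjusted p = 0.0218). With the 3' to 5' difference as a term in 18 arrays, the differences of *Zfp36* (0.17) and *Nr4a1* (0.06) turned, and that of *Egr3* was 0.90.

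Lists of the stress and hormone state were above and below the 10% called over all genes. Of 15 glucocorticoid response genes 3 fell and 0 rose (20%), with a median of 0.00: *Pdk4*, a kinase that spares glucose, from 8.74, 8.54 and 8.68 to 7.78, 8.26 and 7.44 (adjusted p = 0.0246), the clock gene *Per1* by 0.41 and the sulfotransferase *Sult1a1* by 0.27. Of 15 heat shock genes 1 fell (6.67%), the haem oxygenase *Hmox1*, from 6.85, 6.81 and 6.78 to 6.55, 6.61 and 6.47 (adjusted p = 0.02). Of 18 circadian clock genes (16.7% called) 1 rose (*Bhlhe41*, by 0.36) and 2 fell (*Npas2*, by 0.66, and *Per1*). *Pdk4* differed by -0.16, *Bhlhe41* by 0.05 and *Npas2* by -0.71 with the 3' to 5' term in 18 arrays. Dimmer probe sets of *Npas2* and *Bhlhe41* differed by -0.05 and -0.09 and did not pass. The medians of the heat shock and clock lists were 0.06 and -0.03.

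The 10 largest increases with separate groups were *Sprr1a*, *Atp10d*, *Wdfy1*, *Npy*, *Ano3*, *Atf3*, *Srsf5*, *S100a7l2*, *Egr3* and *Fst*. The 10 largest decreases were *2610507I01Rik*, *Taf15*, *Etnppl*, *Nab1*, *Xaf1*, *Tspoap1*, *Igtp*, *Scn2b*, *Zfp39* and *Aox4*. Of the decreases, 6 lie on chromosome 11, and of the increases none. That chromosome holds 1452 of the 18143 measured genes with a position.

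*Scn2b*, the beta 2 subunit of voltage-gated sodium channels, was at 11.10, 11.11 and 11.22 in Nav1.8 and at 10.05, 10.04 and 10.03 in Nav1.9 littermates. The groups did not overlap (difference -1.10, SE 0.0585, 2.14-fold lower, adjusted p = 3.42e-05). The same step was present in the KO arrays, 11.13 to 11.18 in Nav1.8 KO and 10.13 to 10.17 in Nav1.9 KO (difference -1.01, adjusted p = 4.08e-08), and the Nav1.7 littermates, at 10.97 to 11.17, were with the Nav1.8 line. With the 3' to 5' difference as a term it was -1.33 in 9 arrays (adjusted p = 0.062) and -1.22 in 18 arrays (adjusted p = 6.92e-05). Its other 2 probe sets, both dimmer, were lower too, by 0.46 and 0.17, without passing.

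*2610507I01Rik*, a transcript with no established function, was at 7.27, 7.29 and 7.29 against 5.34, 5.39 and 5.30. No other gene had a smaller p (difference -1.94, SE 0.0423, 3.84-fold lower, adjusted p = 3.08e-08), and its second probe set fell by 1.32. In Nav1.9 KO it was at 6.95, 6.59 and 6.69, between the littermate groups, and in Nav1.8 KO at 7.23 to 7.43.

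Several genes took separate levels within 1 group. *Nab1*, a corepressor of EGR factors, was at 10.57, 10.57 and 10.55 in Nav1.8 littermates and at 8.65, 8.68 and 10.03 in Nav1.9 littermates, and the Nav1.9 KO arrays had the same levels, 10.02, 8.81 and 8.80 (difference in littermates -1.44, SE 0.299, adjusted p = 0.0193). It was not called without Nav1.8 littermate replicate 1 or 2 or Nav1.9 littermate replicate 1 or 2 (difference -1.89 to -1.20). *Taf15*, an RNA-binding protein, was at 7.82, 7.77 and 7.75 against 6.36, 5.97 and 6.19, with Nav1.9 KO at 6.29, 7.17 and 6.95 (difference -1.60, adjusted p = 0.000197). *Wdfy1*, an endosomal adaptor protein whose level differs between inbred strains, was at 8.43, 8.34 and 8.46 against 9.57, 9.54 and 9.62, with Nav1.9 KO at 9.51, 10.15 and 10.19 and Nav1.7 littermates at 10.10 to 10.13 (difference 1.17, SE 0.0472, adjusted p = 5.32e-06).

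*Scn11a* itself, the gene that is disrupted in the Nav1.9 line, was at 13.19, 13.20 and 13.24 in Nav1.8 littermates and at 12.61, 13.27 and 12.69 in the wild-type Nav1.9 littermates. Nav1.9 littermate replicates 1 and 3 were below every other littermate array, and replicate 2 was above the Nav1.8 littermates, so the groups overlapped (difference -0.36, SE 0.140, adjusted p = 0.139). The Nav1.9 KO arrays were at 10.90 to 11.13. *Scn10a* overlapped as well, at 9.74, 9.54 and 8.96 against 9.49, 9.48 and 9.60 (adjusted p = 0.713), and *Scn9a* was at 12.14, 12.13 and 12.08 against 12.37, 12.50 and 12.32 (difference 0.28, adjusted p = 0.0196). With the 3' to 5' difference as a term in limma, *Scn10a* differed by 1.21 in 9 arrays (adjusted p = 0.0866) and by 0.86 in 18 (adjusted p = 0.173). *Scn11a* then differed by -0.41 and -0.37, and *Scn9a* by 0.33 and 0.25. Of 11 sodium channel subunits (27.3% called, against 10% of all genes) 1 rose (*Scn9a*) and 2 fell (*Scn2b* and *Scn3b*, the latter by 0.25, with a second probe set that rose by 0.29).

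*Xaf1*, an interferon-induced binding partner of the apoptosis inhibitor XIAP, differed in opposite directions at its probe sets. The brighter one was at 9.89, 9.89 and 9.56 against 8.68, 8.55 and 8.26 (difference -1.28, SE 0.116, adjusted p = 0.00135). The other was at 4.47, 4.23 and 4.52 against 10.15, 10.07 and 10.08, a difference of 5.69 (SE 0.0964, adjusted p over all probe sets 1.93e-09), and no probe set named for 1 gene differed by more. That probe set was at 9.14 to 9.32 in Nav1.9 KO, at 4.40 to 4.50 in Nav1.8 KO and at 4.30 or below in Nav1.7 littermates, so the Nav1.9 line alone had it. *Igtp*, an interferon-induced GTPase that was not in the interferon list, fell from 10.31, 10.33 and 9.86 to 8.94, 8.93 and 9.24 (adjusted p = 0.00645). With the 3' to 5' term its difference went from -1.13 to -0.37 in 9 arrays and to -0.96 in 18. Of 16 interferon response genes (12.5% called) 1 rose (*Ifi27*) and 1 fell (*Xaf1*), with a median of -0.08. A dimmer *Ifi27* probe set differed by 0.05 and did not pass.

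**Figure D4:**
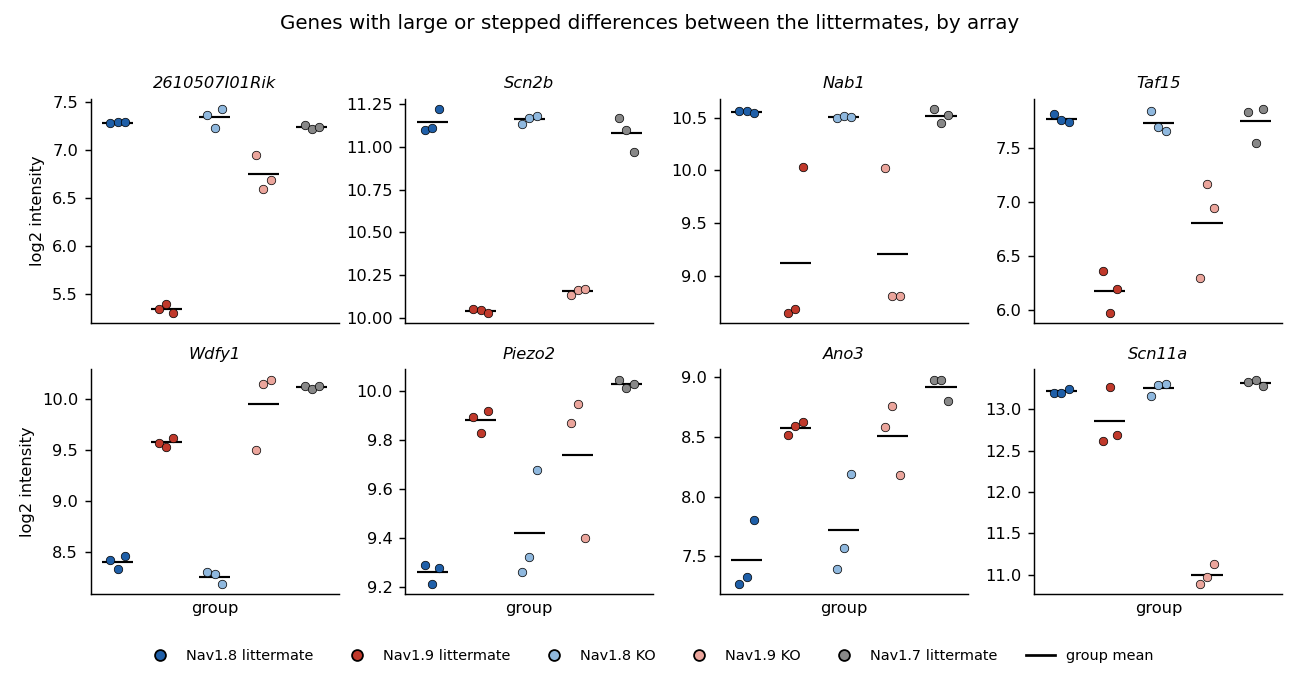
Each panel plots the log2 intensity of 1 gene on the 3 arrays of 5 groups, with bars at the group means. *2610507I01Rik* and *Scn2b* are lower on all Nav1.9 littermate arrays, *Nab1* and *Scn11a* have 1 Nav1.9 littermate array apart from the other 2, and *Piezo2* and *Ano3* are as high in Nav1.7 as in Nav1.9 littermates.

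Of 13 measured genes known to vary between inbred strains, 1 rose (*Wdfy1*) and 1 fell (*Nnt*), 15.4% against 10% of all genes. *Nnt*, the mitochondrial transhydrogenase that is disrupted in some C57BL/6 colonies, was at 9.33, 9.33 and 9.40 against 8.78, 8.87 and 8.68 (adjusted p = 0.0324), and differed by -0.44 with the 3' to 5' term in 18 arrays. *Pttg1*, the securin gene, was at 12.79, 12.75 and 12.76 against 8.09, 11.87 and 11.82, and *Mid1* at 5.86, 5.76 and 7.94 against 7.73, 7.76 and 8.19. Neither passed (adjusted p = 0.128 and 0.111), and in each 1 array stood more than 1 log2 unit from the others of its group.

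Chromosome 11 held the highest share of called genes among the autosomes and X. Of its 1452 measured genes 203 were called (14%), 62 higher and 141 lower, against 7.95% to 11.4% on the other autosomes and X. At the study's thresholds, 16 of the 85 genes with a position were on chromosome 11, against 1452 of all 18143 measured genes with a position. Of these 16, 13 were lower in Nav1.9 littermates: *Gria1*, *Igtp*, *Zfp39*, *2610507I01Rik*, *Mrpl55*, *6330403K07Rik*, *Xaf1*, *Aspa*, *Taf15*, *Ccl6*, *Wfdc17*, *Brip1os* and *Tspoap1*. They lie between the 354th and the 857th measured gene of the chromosome. Among all windows of 20 neighbouring genes, the one with the most calls was there too, with 9 called and 8 of them lower. Another 7 windows held 8 calls, including that from *Apbb2* to *Atp10d* on chromosome 5.

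The spread within groups differed among these genes, from an SD of 0.0079 for *2610507I01Rik* to one of 0.391 for *Ccl6*, both in Nav1.8 littermates. *Tspoap1*, a binding partner of the mitochondrial protein TSPO, was at 8.52, 8.50 and 8.54 against 7.28, 7.43 and 7.34 (difference -1.17, SE 0.0511, adjusted p = 7.05e-06). *Mrpl55*, a mitochondrial ribosomal protein, was at 9.75, 9.77 and 9.82 against 9.09, 9.16 and 9.07 (difference -0.67, SE 0.0469, adjusted p = 0.000271). *Zfp39*, a zinc finger gene, was at 7.32, 7.25 and 7.14 against 6.13, 6.11 and 6.38, and *Aspa*, the aspartoacylase of myelinating glia, at 10.45, 10.49 and 10.37 against 9.44, 9.50 and 9.40. In each of these 4 the groups were separate.

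In the KO arrays the share of called genes on chromosome 11 was 2.82%, against 2.83% of all genes, and chromosome 3 had 5.32%. For 11 of the 13 genes the Nav1.9 KO mean was between both littermate means, for 9 all Nav1.9 KO arrays were above all Nav1.9 littermate arrays, and for 12 all were below all Nav1.8 littermate arrays. The difference between the lines was below 0 in the KO arrays for all 13 and called for 7, with a median of -0.41, against -0.99 in littermates. The 13 were picked for their littermate difference, so a smaller KO difference follows in part from the choice. Of all 86 genes past the study's thresholds, 94.2% had the same direction in the KO arrays and 38.4% were called there. Their median size was 0.73 in littermates, and 0.42 along the littermate direction in the KO arrays. The counts of arrays above or below were not made for other genes. The Nav1.7 littermate mean was above all Nav1.9 littermate arrays in 11 of 13. With the 3' to 5' difference as a term, the median of these 13 in littermates was -0.83 in 9 arrays and -0.96 in 18, whereas that of all 203 called genes of chromosome 11 went from -0.235 to -0.145 and -0.0763. Near the disrupted genes on chromosome 9, *Xylb* (by 0.37) and *Wdr48* (by 0.24) were lower in Nav1.9 littermates among the 5 measured genes on either side of *Scn10a* and *Scn11a*, where 10% of all genes were called. Another *Wdr48* probe set rose by 0.24 (adjusted p over all probe sets 0.0232), and with the 3' to 5' term in 18 arrays *Xylb* differed by 0.03 and *Wdr48* by -0.03.

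**Figure D5:**
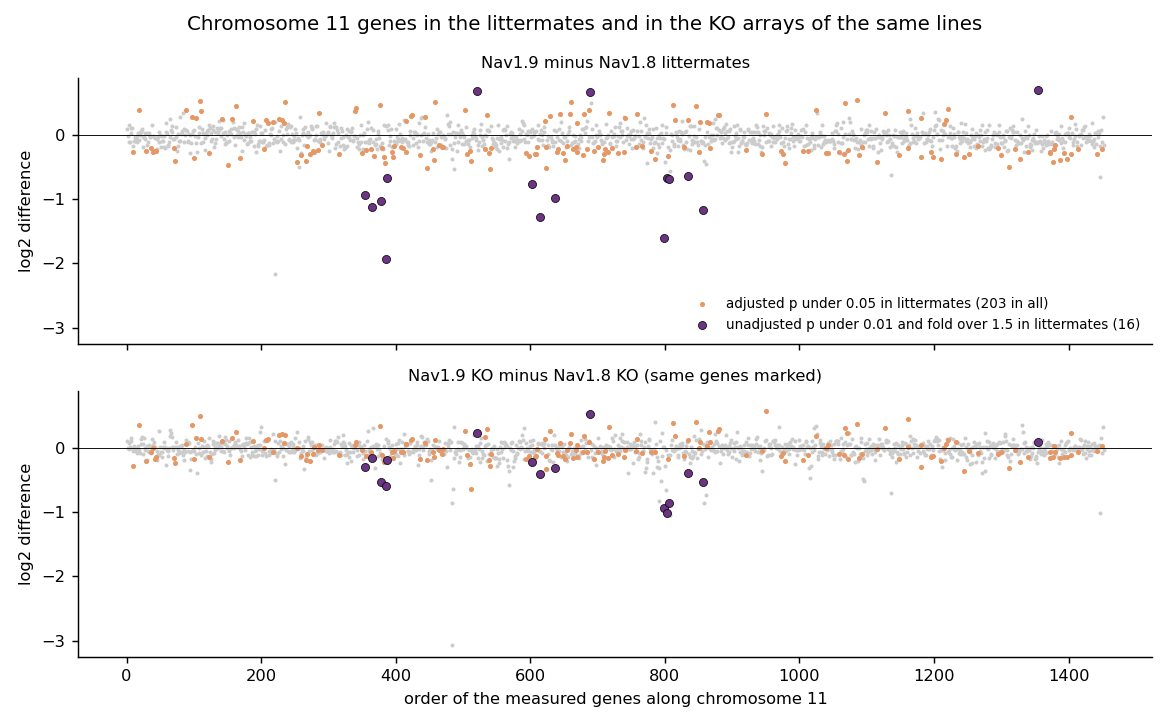
Each point is 1 of 1452 measured genes of chromosome 11, in their order along it, with the log2 difference between the lines in littermates (top) and in KO arrays (bottom). The 203 genes called in littermates and the 16 past the study's thresholds are marked in both panels. The 13 large decreases between genes 354 and 857, picked by their littermate difference, have a smaller median size in the KO arrays.

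Marker lists of the cell types in a DRG held 0 to 2 called genes each, 0% to 20% of a list, against 10% of all genes. In whole ganglia, fewer cells of a type and less RNA per cell cannot be told apart. Of 11 sensory neuron markers 0 rose and 2 fell (18.2%), *Prrxl1*, a homeodomain factor of nociceptors, from 11.19, 11.11 and 11.19 to 10.90, 10.86 and 10.89 (adjusted p = 0.00944), and the RNA-binding protein *Elavl3* by 0.29. With the term in 18 arrays these differences were -0.11 and -0.06. Dimmer *Elavl3* probe sets differed by 0.10 and -0.05 and did not pass. Of 14 non-peptidergic nociceptor markers (14.3% called) *Mrgpra3*, an itch receptor, rose by 0.23 and *Lpar3*, a lysophosphatidic acid receptor, fell by 0.22. Of 10 peptidergic nociceptor markers and 5 C-LTMR markers (unmyelinated touch neurons) none passed. An unadjusted p under 0.05 by limma was found for 1 and 2 of them, against 26.6% of all genes.

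*Piezo2*, the mechanically gated channel of touch and proprioception, was at 9.29, 9.21 and 9.28 against 9.90, 9.83 and 9.92 (difference 0.62, SE 0.0445, 1.54-fold, adjusted p = 0.000271). The groups were separate, but a dimmer probe set of the gene fell by 0.26. The Nav1.7 littermates were at 10.01 to 10.05, and in the KO arrays the 1 array of each line with the outlying 3' to 5' difference (0.678 in Nav1.8 and 0.616 in Nav1.9) was at 9.68 and 9.40, apart from its other replicates. *Ano3*, an anoctamin of nociceptors, was also as high in Nav1.7 as in Nav1.9 littermates, with 7.27, 7.32 and 7.80 against 8.52, 8.59 and 8.62, and a difference of 1.11. The *Piezo2* difference with the 3' to 5' term was 0.62 in 9 arrays and 0.19 in 18, and that of *Ano3* was 0.34 and 0.02. Among the 14 measured mechanoreceptor and proprioceptor markers (14.3% called) *Necab2*, a calcium-binding protein, fell by 0.42. Only 3 of the 14 had the higher mean in Nav1.9 littermates, against 39.7% of all genes, and the median difference was -0.08. The arrays did not overlap with Nav1.9 littermates lower in 7 and higher in 1, against 20.2% and 12.2% of all genes. An unadjusted p under 0.05 by limma was found for 8, against 26.6% of all genes.

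Of 18 neuropeptide precursors (11.1% called) *Npy* rose and *Penk*, the enkephalin precursor, fell, from 9.51, 9.47 and 9.56 to 9.14, 9.10 and 9.20 (difference -0.36, SE 0.0533, adjusted p = 0.00717). *Penk* was at 7.77 to 7.90 in the *Xist*-high Nav1.7 littermates. Of 10 satellite glia markers *Apoe*, the lipid carrier, rose by 0.39 (adjusted p = 0.01), and of 10 Schwann cell and myelin markers (20% called) *Egr2* and *Drp2*, a dystrophin-related protein of myelin, fell (*Drp2* by 0.33). With the term in 18 arrays *Penk* differed by -0.21, *Apoe* by 0.12, *Egr2* by -0.22 and *Drp2* by -0.26.

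Of 12 endothelial markers (16.7% called, against 10% of all genes) *Emcn*, an endothelial sialomucin, rose by 0.53 and *Cdh5*, the junction protein VE-cadherin, fell by 0.35, and the *Emcn* difference turned to -0.25 with the 3' to 5' term in 9 arrays. A dimmer *Cdh5* probe set differed by 0.007 and did not pass. Of 12 fibroblast and meningeal, 16 macrophage, 7 lymphocyte and neutrophil, 7 fat, 5 red blood cell and 9 spinal cord markers none was called. In that order, 2, 0, 0, 1, 0 and 0 had an unadjusted p under 0.05 by limma, against 26.6% of all genes. Macrophage markers averaged 7.76 to 7.89 in Nav1.8 and 7.65 to 7.82 in Nav1.9 littermates.

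Skeletal muscle RNA varied from array to array. None of 10 muscle markers passed, all 10 had the lower mean in Nav1.9 littermates, and the median difference was -0.43. Of all genes, 39.7% had the higher mean in Nav1.9 littermates. *Tnnc2*, fast troponin C, was at 9.38, 9.19 and 7.75 in Nav1.8 and at 5.44, 9.99 and 8.54 in Nav1.9 littermates. The lowest and the highest of the 6 arrays were thus both in the Nav1.9 group. The list averaged 7.13 to 8.36 in Nav1.8 and 5.75 to 9.16 in Nav1.9 littermates. Replicate 1 of the Nav1.9 littermates, the lowest for *Tnnc2*, was the highest for *Sprr1a* and *Atf3*, and the part of adjoining tissue in those values was not tested.

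Homeobox cluster genes, which mark the position along the body axis, were called in one direction. Of 33 measured, 0 rose and 5 fell (15.2%, against 6.17% of all genes called lower), with a median difference of -0.12. The mean was lower in 26, and of all genes 39.7% had the higher mean in Nav1.9 littermates. The list averaged 6.88 to 6.92 in Nav1.8, 6.76 to 6.81 in Nav1.9 and 6.74 to 6.79 in Nav1.7 littermates. The part of RNA quality in this was not tested. *Hoxc9* was at 8.13, 8.01 and 7.98 against 7.66, 7.69 and 7.60 (difference -0.39, SE 0.0573, adjusted p = 0.00717), and *Hoxc10*, *Hoxd13*, *Hoxb6* and *Hoxc4* fell by 0.48, 0.29, 0.30 and 0.26. The C cluster gave 3 of the 5. A dimmer *Hoxd13* probe set differed by 0.05 and did not pass. In the KO arrays *Hoxc9* differed by -0.03. The 3' to 5' term gave *Hoxc9* a difference of -0.21 in 9 arrays and -0.31 in 18, and *Hoxb6* one of -0.30 and -0.16.

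The KO arrays of the same lines show how much of the difference is present in other animals, with the caution that Nav1.8 KO mixes *Xist*-low and *Xist*-high arrays and that the 3' to 5' difference separates the lines there as well. In KO arrays 514 genes were called (2.83%), 237 higher in Nav1.9 KO (1.30%) and 277 lower (1.52%). Of the 1821 genes called in littermates, 1668 had the same direction (91.6%, against 66.1% of all genes) and 250 were called in the same direction, 13.7% of the littermate calls and 48.6% of the KO calls, and 2 were called in the opposite one. Of the 10 largest decreases 8 were called again, all lower. Of the 10 largest increases 4 were called again, *Atp10d*, *Wdfy1*, *Ano3* and *Srsf5*.

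None of the 30 injury genes was called between the KO arrays by limma (3 at an unadjusted p under 0.05), and their median difference was 0.06. The test of the difference itself, littermates against KO arrays, did not pass for any of them (10 at an unadjusted p under 0.05). For *Sprr1a* the line difference was larger in littermates by 2.17 (adjusted p = 0.365), for *Atf3* by 1.13 (adjusted p = 0.407) and for *Npy* by 0.84 (adjusted p = 0.486). Over all genes, 7 passed that test (0.0385%), and 1644 had an unadjusted p under 0.05 (9.04%).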

How the data were processed

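Log2 intensities from Affymetrix Expression Console were deposited by the authors in a table of all 18 arrays, and the version, summary method and normalization are not given in the sources used here. Groups were taken from sample titles and genotypes. Of 45101 probe sets 64 controls were left out of tests, 34945 carried 1 gene symbol, and the brightest of each gene was kept (18193 genes). Differences were fitted with limma 3.58.1 in R 4.3.3 (lmFit, eBayes) on the 9 littermate arrays with 3 group means, where Nav1.7 littermates add only to the spread, and p-values were two-sided and adjusted by Benjamini-Hochberg (threshold 0.05). KO arrays and the difference between both line differences were fitted on 18 arrays with 6 group means. The script was tested on simulated data. Replicate numbers did not pair the arrays (correlations of deviations -0.05, 0.22 and 0.07). Named were the 10 largest called differences in each direction without overlap, called list members (otherwise those with the smallest p), called genes of the densest window of 20 genes and next to *Scn10a* and *Scn11a*. Members and lists were chosen with earlier results of these data known, and the 3' to 5' term after seeing the data. Promoters are from RefSeq, build GRCm38.p6.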

Additional observations from a re-analysis of the deposited data

Results flagged for a closer look

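For 7 genes the difference between the lines was not the same in littermates as in KO arrays, by limma's test of the difference itself. The value is the littermate difference minus the KO difference on the log2 scale. For *Scn11a* it was 1.896 (adjusted p = 7.22e-05) and for *Scn10a* -1.59 (adjusted p = 0.00203), the genes that are disrupted in one of the KO groups each. *2610507I01Rik* had -1.34 (adjusted p = 3.71e-05), and *Mrpl55*, on the same chromosome, had -0.48 (adjusted p = 0.0026).

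*Ceacam10*, an adhesion molecule, had -1.56 (adjusted p = 0.000423), with 8.90, 8.86 and 8.67 in Nav1.8 littermates, 8.99 to 9.09 in Nav1.9 littermates, 7.36, 7.47 and 7.64 in Nav1.8 KO and 9.34, 9.19 and 9.27 in Nav1.9 KO. The Nav1.8 KO arrays were the low ones. *Zfp236* had 0.62 (adjusted p = 0.00694), with Nav1.9 KO at 7.63 to 7.78 and the other 9 arrays of both lines at 8.24 to 8.58. *Ranbp9* had 0.57 (adjusted p = 0.0165), with Nav1.9 littermates at 10.40 to 10.46 and the other 9 arrays of both lines at 9.91 to 10.32.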

How the results depend on the processing

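The 1821 called genes became 1160 with the replicate block, 283 at an adjusted p under 0.01, 86 at the study's thresholds, 55 by analysis of variance at those thresholds and 73 by its adjusted p, 4074 probe sets where each was tested separately (2354 higher), 1 and 3 with the 3' to 5' term in 9 and 18 arrays, and 483 to 1603 with 1 array left out. With the mean of all probe sets 1048 of 1923 were higher, against 699 of 1821. The 10 injury genes became 6 in a fit of the 6 arrays, 0 and 0 with the term, and 3 to 14 with 1 array left out. The 514 genes of the KO arrays became 125 with *Xist* class as a term, 946 with dim genes left out, 811 with a trend and robust prior, 46 with the 3' to 5' term and 120 to 636 with 1 array left out. The 7 genes with unequal line differences became 12 with dim genes left out, 13 with a trend and robust prior and 6 to 14 with 1 array left out. Of the 69 named called genes 27 were called under every alternative that held them, apart from the 3' to 5' term, which was chosen after seeing the data. The fit with dim genes left out held 57 of the 69, and so did that with x, s and a suffix probe sets left out. *Xaf1* (2.21) and *Scn3b* (0.0194) reversed with the mean of all probe sets. With the term in 9 arrays *Nr4a2* (0.0035), *Nr4a1* (0.0667), *Ifi27* (-0.18) and *Emcn* (-0.25) reversed, and in 18 arrays *Zfp36* (0.17), *Nr4a1* (0.0608), *Ifi27* (-0.10), *Emcn* (-0.0946) and *Xylb* (0.0286). The causes were not tested.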
